A study of Mus musculus with 13 samples.

Results

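Newly formed oligodendrocytes are the cells in between a dividing oligodendrocyte precursor and a myelinating oligodendrocyte. They were taken from the deposited table of the mouse medial amygdala as the cells whose class name, given by the authors, sits between precursor and oligodendrocyte and that had at least 500 detected genes. Of 639 cells with that name 466 passed, out of 24808 cells kept on the same rule and 43388 deposited in all. The neighbouring classes held 4202 precursor cells and 3968 mature oligodendrocytes. On the edge of the rule, 16 of the 466 cells had 500 to 549 genes, and 20 further cells with the class name had 450 to 499.

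The study addressed how the medial amygdala, a forebrain region of social behaviour, controls parenting differently in males and females. Cells of naive C57BL/6J mice, an inbred strain, were dissociated by the Act-seq method, in which transcription is blocked, and run on Drop-seq, a droplet method that counts each captured mRNA by a unique molecular identifier (UMI). There were 6 male and 7 female libraries. Mice were 9 weeks old in all but 3 libraries, which were of 8 weeks (female replicate 3 and male replicates 3 and 5), and all had been housed singly for at least 1 day under a reversed light cycle. The labels do not say that each library was a separate animal, so p-values measure the spread between libraries, which may be technical.

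An oligodendrocyte precursor stops dividing, passes through a short premyelinating stage in which it extends many branched processes, and then either wraps axons or dies. In this stage the cell gives up the receptors that let precursors respond to mitogens and synaptic input, and it starts to make the lipids and proteins of compact myelin. Fyn, Bmp4, Enpp6, Gpr17, Neu4 and Bcas1 are widely used markers of the stage. Fyn is a Src-family kinase that couples axonal contact to process outgrowth and local myelin protein synthesis, Bmp4 is a secreted growth factor of the TGF-beta family, Enpp6 cleaves choline phosphodiesters, Gpr17 is a G-protein-coupled receptor of immature cells, Neu4 is a sialidase and Bcas1 is an actin-associated protein of early myelin.

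Promoters of the markers are shown because the lineage is driven by SOX, TCF/LEF and basic helix-loop-helix factors, whose binding motifs can be looked for there. The sequences come from RefSeq on GRCm38.p6 and run from 250 bases before to 50 bases after the annotated start, 5′ to 3′ on the gene's strand. Capitals mark a match to any of the SOX-type strings ACAAAG and ACAATG, the TCF/LEF-type string ATCAAAG and the E-box CAGCTG, searched on both strands; none of the 4 strings contains another. The Enpp6 window, chr8:46986637-46986936 on the plus strand, held 1 match to ACAATG. The Fyn window, chr10:39369549-39369848 on the plus strand, held 1 match to ATCAAAG on the other strand. The Bmp4 window, chr14:46390620-46390919 on the minus strand, held none of the 4.
Enpp6: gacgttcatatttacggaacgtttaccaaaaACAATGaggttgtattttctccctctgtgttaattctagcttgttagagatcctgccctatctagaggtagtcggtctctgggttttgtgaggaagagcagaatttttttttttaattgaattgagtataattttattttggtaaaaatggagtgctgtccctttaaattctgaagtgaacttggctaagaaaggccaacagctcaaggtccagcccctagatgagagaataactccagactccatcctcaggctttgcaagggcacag
Fyn: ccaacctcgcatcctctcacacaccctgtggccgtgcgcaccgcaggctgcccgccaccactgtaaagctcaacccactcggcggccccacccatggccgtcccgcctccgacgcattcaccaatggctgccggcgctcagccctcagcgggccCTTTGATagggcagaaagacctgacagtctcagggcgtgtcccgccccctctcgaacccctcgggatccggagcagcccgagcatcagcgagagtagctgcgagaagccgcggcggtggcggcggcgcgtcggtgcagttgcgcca
Bmp4: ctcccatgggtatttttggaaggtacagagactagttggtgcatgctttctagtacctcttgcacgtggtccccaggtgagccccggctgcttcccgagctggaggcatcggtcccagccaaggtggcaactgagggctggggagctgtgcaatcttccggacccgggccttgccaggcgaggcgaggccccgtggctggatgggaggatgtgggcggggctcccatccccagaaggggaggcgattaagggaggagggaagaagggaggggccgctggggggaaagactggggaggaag
The Neu4 window, chr1:94020243-94020542 on the plus strand, held none of the 4 either, and Bcas1 and Gpr17 are named only. Among the 306 genes that peaked in newly formed cells (defined further on), 226 had a promoter. ACAAAG was in 15.9% of these 226, against 12.7% of the 7685 promoters of all genes tested and 18.7% of all 27025 promoters. ACAATG was in 9.73%, against 7.0% and 12.8%. ATCAAAG was in 2.21%, against 2.41% and 3.72%, and CAGCTG in 16.8%, against 14.5% and 16.1%. Each share of the peak genes lay between or close to the shares in the other sets.

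The 13 libraries held 12 to 56 newly formed cells and 76986 to 299767 UMIs of this class each. Scrublet called 3 of the 466 cells doublets, and none of them shared its barcode with a cell of another library. Marker genes of other cell types were low in the class: summed over each list, unscaled CPM had a median over libraries of 302 for astrocytes (range 177 to 873), 97.4 for microglia (49.1 to 1154), 102 for endothelial cells (64.9 to 206), 83.3 for mural cells (51.4 to 191) and 384 for neurons (163 to 641). The same sums in those types themselves had medians of 41119 CPM for astrocytes, 60615 for microglia, 33895 for endothelial cells, 35743 for mural cells and 30000.1 for neurons. The mural list includes Cspg4, which is also a precursor gene and was not taken out of the sum. The endothelial marker Cdh5 and the mural markers Pdgfrb, Kcnj8, Higd1b and Atp13a5 had 0 UMIs in newly formed cells.

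The markers matched the class name, which is no independent test if the names came from these counts. At least 3 of the 6 markers had a UMI in 460 of the 466 newly formed cells (98.7%), in 50.6% of precursors, in 4.96% of mature cells and in 0.0775% of astrocytes, a type that should lack them. After each cell was thinned to 800 UMIs, the shares were 91.3% in newly formed cells, 9.66% in precursors, 0.204% in mature cells and 0.0164% in astrocytes. Thinning left out 18 newly formed cells, 257 precursors, 41 mature cells and 335 astrocytes, which were shallower. Enpp6 had a UMI in 80.0% of newly formed cells, 0.19% of precursors, 10.3% of mature cells and 0.16% of astrocytes. Bmp4 was seen in 53.2% of newly formed cells, 0.17% of precursors, 0.50% of mature cells and 0.06% of astrocytes. Pdgfra, the receptor that defines precursors, had a UMI in 10.7% of newly formed cells against 97.3% of precursors, and Mog, a protein of the outer myelin surface, in 23.2% against 96.9% of mature cells.

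Each marker was higher in newly formed cells than in both neighbours in every library. Levels are TMM-scaled CPM, with counts summed per library and class. Fyn (chr10:39368855-39565381) had 3141, 3427 and 3792 CPM as its lowest, median and highest library in newly formed cells, 207, 235 and 278 CPM in precursors and 99.9, 129 and 192 CPM in mature cells. No library of either neighbour came near the lowest newly formed one. The log2 difference was 3.85 ± 0.06 (SE) against precursors and 4.74 ± 0.06 against mature cells.

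Enpp6 (chr8:46986887-47096762) had 1117, 1271 and 2151 CPM in newly formed cells, 0, 0 and 2.65 CPM in precursors and 46.2, 77.7 and 102 CPM in mature cells. It was nearly absent from precursors, with 9 UMIs in all, and remained at a low level in mature cells. Bmp4 (chr14:46383520-46390669) had 283, 561 and 847 CPM in newly formed cells, 0, 0 and 1.39 CPM in precursors (7 UMIs in all) and 0, 1.25 and 6.26 CPM in mature cells. Its transcript was thus close to the limit of counting in both neighbours, and its log2 differences were 9.82 ± 0.17 against precursors and 8.15 ± 0.15 against mature cells.

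Gpr17, Neu4 and Bcas1 were shared with a neighbour. Gpr17 (chr18:31942997-31949636, overlapped on the other strand by Lims2, so that reads of both genes cannot be told apart without strand) had 2411, 3259 and 4437 CPM in newly formed cells, 836, 956 and 1308 CPM in precursors and 18.7, 60.9 and 109 CPM in mature cells. Neu4 (chr1:94020451-94028334) had 383, 682 and 907 CPM in newly formed cells, 259, 323 and 375 CPM in precursors and 0, 1.63 and 8.26 CPM in mature cells. The lowest newly formed library of Neu4 was only just above the highest precursor one, and both genes were near 0 or low in mature cells. Bcas1 (chr2:170346991-170427845) had 2873, 3385 and 3569 CPM in newly formed cells, 276, 376 and 439 CPM in precursors and 488, 597 and 688 CPM in mature cells.

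**Figure D1:**
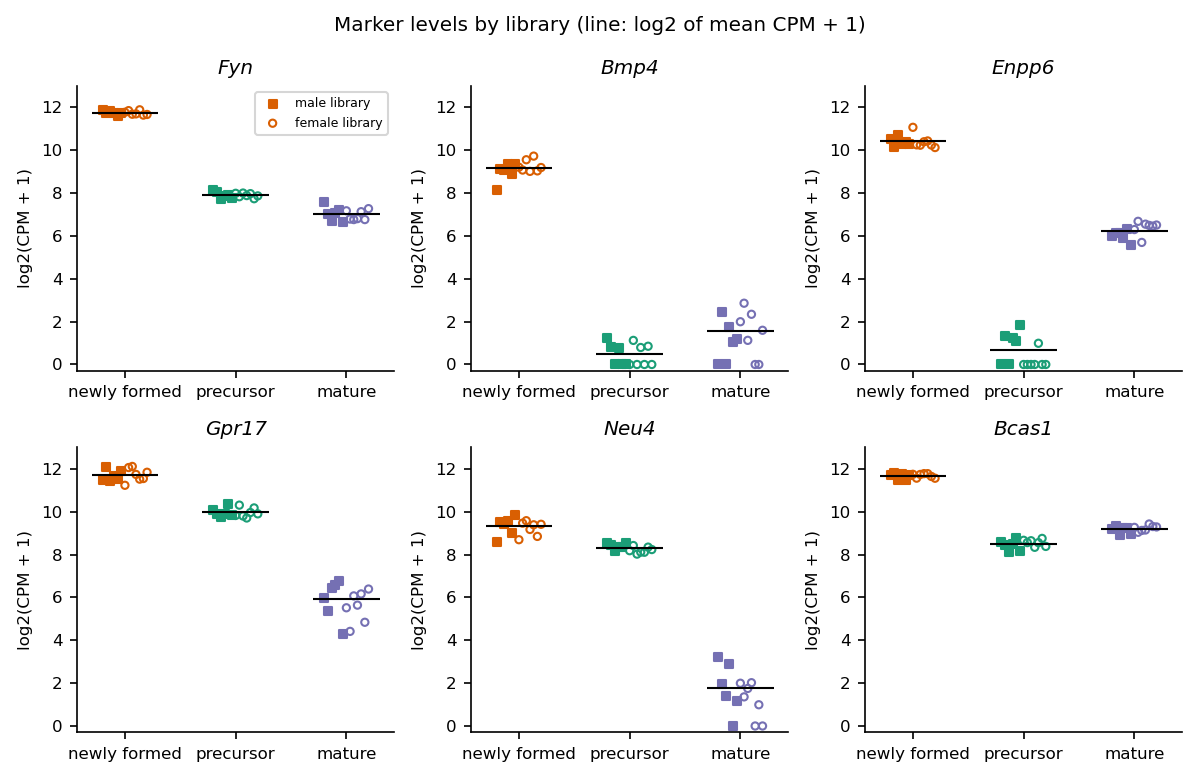
Levels of the 6 markers by library: each panel shows log2(TMM-scaled CPM + 1) in newly formed, precursor and mature cells, with filled squares for the 6 male libraries, open circles for the 7 female ones and a line at the log2 of the mean CPM + 1. Every newly formed library lies above every precursor and mature library, widely for Bmp4 (means of 579 CPM in newly formed, 0.427 in precursor and 1.97 in mature cells) and narrowly for Neu4 against precursors (637 against 315 CPM).

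All genes were then sorted by both class differences. The sources used here do not say how the authors assigned the class names; if they came from these counts, the calls sort genes and are no independent test. Of 10166 genes tested, 2491 (24.5%) were higher and 3539 (34.8%) lower in newly formed cells than in precursors, together 59.3%, and 3217 (31.6%) were higher and 3220 (31.7%) lower than in mature cells, together 63.3% (edgeR quasi-likelihood test, library as block, adjusted p under 0.05). Counts of list members are to be read against these shares. Genes that also differed by a log2 of at least 1 from both neighbours fell into 4 patterns. A peak was seen in 306 genes (3.01%), the lowest level of the 3 classes in 425 (4.18%), a step down from precursor to mature in 574 (5.65%) and a step up in 163 (1.6%). Scaled by total counts alone, the median gene shifted by -0.23 against precursors and 0.51 against mature cells, instead of -0.11 and 0.00085, and 5688 genes were then higher and 1615 lower than in mature cells, and 1967 higher and 4173 lower than in precursors; differences are given relative to TMM scaling.

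**Figure D2:**
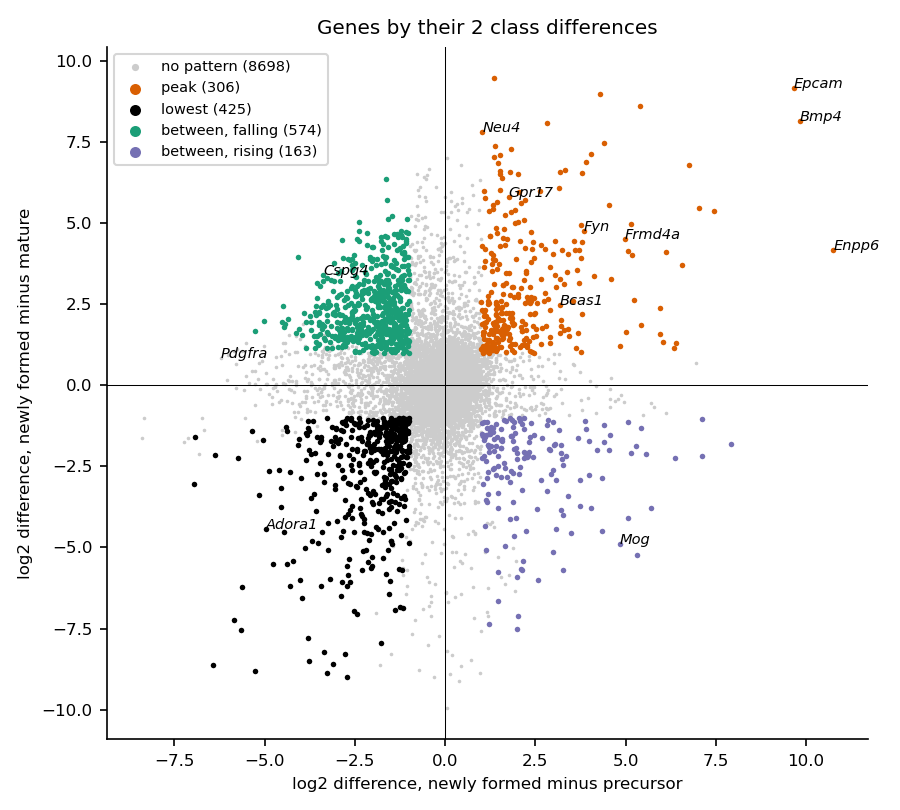
Each point is 1 of the 10166 genes tested, with its log2 difference of newly formed minus precursor cells on the x axis and of newly formed minus mature cells on the y axis; colours give the 4 patterns. The 306 peak genes fill the upper right corner, where Epcam (9.66 and 9.17) and Bmp4 (9.82 and 8.15) lie far out on both axes, and the 574 genes that step down outnumber the 163 that step up.

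Of the 306 peak genes, 238 were higher than both neighbours in all 13 libraries. All 6 markers were among the 306, but only 5 of the 6 peaked with DESeq2 or with total counts. Epcam (chr17:87635979-87651129), an adhesion protein best known from epithelia, had the most extreme pattern. It had 130.0, 228 and 384 CPM in newly formed libraries, while precursors held 2 of its UMIs in all and mature cells 3, against 686 in newly formed cells. The ratio of newly formed cells was 1711 to precursors (95% counting interval 472 to 14158) and 1384 to mature cells (472 to 6728). Kcne4, a regulatory subunit of potassium channels, averaged 38.1 ± 20.2 CPM (SD, n = 13) in newly formed cells, at 183 times the level of precursors (61.0 to 901, 3 UMIs) and 333 times that of mature cells (89.996 to 2783, 2 UMIs).

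Other genes with a steep peak were well expressed in newly formed cells. Frmd4a, a scaffold of cell polarity, had 726, 1198 and 2187 CPM in newly formed libraries, 30.8, 37.8 and 47.2 CPM in precursor ones and 30.7, 47.4 and 95.6 CPM in mature ones. Pik3r3, a regulatory subunit of phosphoinositide 3-kinase, averaged 1862 ± 788 CPM in newly formed cells, 52.3 ± 9.26 CPM in precursors and 101 ± 33.3 CPM in mature cells. Both varied widely among newly formed libraries, yet the lowest newly formed library was far above every other library.

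Rnd2, a small GTPase, averaged 628 CPM in newly formed cells, 47.4 CPM in precursors and 35.0 CPM in mature cells. Pak4, a kinase downstream of small GTPases, averaged 379 CPM in newly formed, 30.6 in precursor and 20.7 in mature cells, but overlaps Samd4b on its own strand, so its reads are uncertain. Tmem108, a transmembrane protein, averaged 630.5 ± 113 CPM in newly formed, 44.9 ± 6.83 in precursor and 29.0 ± 7.88 in mature cells. Gng4, a G-protein gamma subunit, averaged 117 CPM in newly formed, 8.26 in precursor and 1.17 in mature cells, and Brca1, known for DNA repair, 201 CPM in newly formed, 9.62 in precursor and 1.06 in mature cells. Each of these 5 genes was above both neighbours in all 13 libraries.

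Itgb7, an integrin subunit, averaged 57.6 CPM in newly formed cells, 0.298 CPM in precursors and 1.141 CPM in mature cells. Ptger1, a prostaglandin E2 receptor, had 19.9, 86.3 and 419 CPM in newly formed libraries and at most 4.38 CPM in precursor and 7.61 CPM in mature ones. Matn1, a matrix protein, averaged 211 CPM in newly formed cells and 10.8 CPM in precursors; mature cells held 3 UMIs, for a ratio of 1178 (401 to 5730). Pvalb, a calcium-binding protein best known in interneurons, averaged 29.3 CPM in newly formed cells and 1.96 CPM in precursors, with 1 UMI in mature cells (ratio 490, 85.5 to 19601). Gp1bb averaged 163 CPM in newly formed, 3.66 in precursor and 0.22 in mature cells but overlaps Sept5 on the same strand, so the 2 cannot be told apart. The remaining genes with the steepest peak were Rassf10, Pde9a, 9530059O14Rik, Pycr1, Kif19a, Sept5, Lrrc42 and Rhbdl2, with means of 75.6 to 294 CPM in newly formed cells.

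Most peak genes were also highest when all 8 deposited classes were compared. In unscaled CPM, 246 of the 306 had their highest mean in newly formed cells, and 155 of them in each of the 13 libraries. The 306 had been chosen to exceed precursors and mature cells in these counts, so part of this was fixed by the choice. The same share over all genes was not computed. The others were highest in microglia (16), neurons (14), mural cells (12), endothelial cells (10) or astrocytes (8). Kcne4 averaged 41.5 CPM in newly formed cells and 113 CPM in mural cells. Bmp4 averaged 628 CPM in newly formed cells, with mural cells next at 77.4 CPM, and Epcam 263 CPM, with neurons next at 4.20 CPM.

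**Figure D3:**
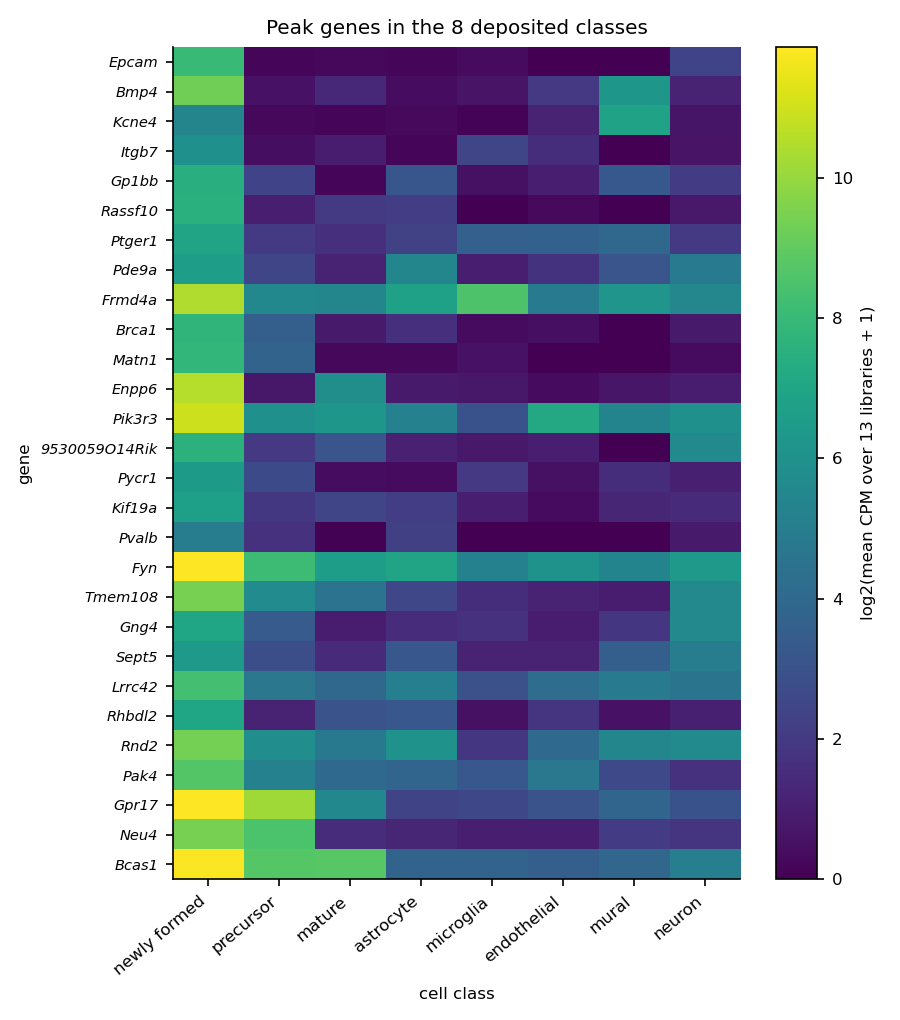
Levels of 28 peak genes (the 25 with the steepest peak and the remaining markers) in the 8 deposited classes, as log2(mean unscaled CPM over 13 libraries + 1) by colour. Newly formed cells, in the leftmost column, are the brightest in every row except that of Kcne4, which is brighter in mural cells (113 against 41.5 CPM).

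A further list held genes known from earlier work on this stage and was put together with results of these data already known. Of its 30 genes other than the 6 markers, 26 passed the filter on low counts. All 26 were higher than in precursors and 22 higher than in mature cells (2 were lower), and 21 had a peak. Median log2 differences were 2.87 against precursors and 2.44 against mature cells (-0.11 and 0.00085 over all genes). Among the 26, Lims2 overlaps the marker Gpr17 on the other strand and Samd4b overlaps Pak4 on the same strand, so their reads are uncertain. Mpzl1, an adhesion protein related to myelin protein zero, averaged 2305 ± 265 CPM in newly formed cells, 243 ± 21.7 CPM in precursors and 128 ± 24.6 CPM in mature cells. Sirt2, a tubulin deacetylase, averaged 5019.9 ± 700.3 CPM in newly formed, 471 ± 42.6 in precursor and 1510.3 ± 197 in mature cells. Chn2, a Rac GTPase-activating protein, averaged 1691 CPM in newly formed, 19.4 in precursor and 675 in mature cells, so that its mature level stayed well above that of precursors. Itpr2, a calcium release channel, averaged 699 CPM in newly formed, 214 in precursor and 29.0 in mature cells. Arpc1b, a subunit of the actin-nucleating Arp2/3 complex, stepped up instead, with 174 CPM in newly formed, 10.3 in precursor and 428 in mature cells.

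The transcription factors of the lineage divided by stage. Of 33 tested of 38, 14 were higher and 16 lower than in precursors and 15 higher and 14 lower than in mature cells, with medians of 0.02 against precursors and -0.08 against mature cells (-0.10 and 0.43 with total counts). Tcf7l2, a TCF/LEF factor, had 153, 339 and 638 CPM in newly formed libraries, 31.9, 37.2 and 75.02 CPM in precursor ones and 11.4, 31.6 and 58.9 CPM in mature ones. Sox4 averaged 505 ± 167 CPM in newly formed cells, 195 ± 34.4 CPM in precursors and 11.1 ± 4.95 CPM in mature cells. Nkx2-2, a homeodomain factor that drives differentiation, averaged 307 CPM in newly formed, 153 in precursor and 63.2 in mature cells, and Zfp488, an Olig2 cofactor, 181 CPM in newly formed, 66.0 in precursor and 30.4 in mature cells. These 4 were the list's peaks, and each was above both neighbours in all 13 libraries. With DESeq2 or with total counts the list had 3 peaks.

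Myrf, the regulator of myelin genes, averaged 226 ± 50.1 CPM in newly formed cells, 16.0 ± 3.14 CPM in precursors and 307 ± 33.0 CPM in mature cells; its log2 difference from mature cells was 0.05 with total counts (adjusted p = 0.57, edgeR). St18, a zinc-finger factor, averaged 155 CPM in newly formed, 0.961 in precursor and 299.6 in mature cells, and Nkx6-2 29.9 CPM in newly formed, 5.35 in precursor and 428 in mature cells. The pan-lineage factor Sox10 averaged 489 CPM in newly formed, 485 in precursor and 456 in mature cells, with log2 differences of 0.02 ± 0.06 (adjusted p = 0.83, edgeR) and 0.10 ± 0.06 (adjusted p = 0.13); with total counts the difference from mature cells was 0.62 (adjusted p = 2.8e-15). Olig1 was lowest in newly formed cells, at 1249.6 ± 214 CPM, against 3088 ± 230.0 CPM in precursors and 2042 ± 227 CPM in mature cells. Its log2 difference from mature cells was under 1 in size, and was -0.18 with total counts (adjusted p = 0.0052, edgeR).

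Hes5, a Notch target, averaged 9.09 CPM in newly formed, 284 in precursor and 10.6 in mature cells, and Id2, an inhibitor of differentiation, 16.6 CPM in newly formed, 253 in precursor and 21.7 in mature cells. Etv5, an ETS factor induced by growth factor signalling, had 3 UMIs in newly formed cells and averaged 155 CPM in precursors and 3.83 CPM in mature cells. Sox6, which restrains differentiation, averaged 337 CPM in newly formed cells against 303 CPM in precursors (log2 difference 0.15 ± 0.08, adjusted p = 0.12, edgeR) and 5.78 CPM in mature cells.

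Genes of the precursor list differed in how much was left in newly formed cells. Of 23 tested of 24 genes, 20 were lower and 1 higher than in precursors, 21 were higher than in mature cells, and 13 stepped down. Pdgfra, the receptor for the main precursor mitogen, had 9.97, 25.6 and 64.7 CPM in newly formed libraries, 2201, 2546 and 2947 CPM in precursor ones and 6.53, 12.5 and 78.3 CPM in mature ones. Newly formed and mature libraries overlapped, and the log2 difference from mature cells of 0.85 ± 0.40 did not pass (adjusted p = 0.066, edgeR), but was 1.37 (adjusted p = 0.0045) with total counts. Cspg4, the proteoglycan NG2, averaged 73.5 ± 35.0 CPM in newly formed cells, 745 ± 109 CPM in precursors and 7.10 ± 6.70 CPM in mature cells. Ptprz1, a receptor phosphatase, averaged 465 CPM in newly formed, 2842 in precursor and 36.9 in mature cells.

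By contrast, Vcan, a matrix proteoglycan, averaged 701 ± 124 CPM in newly formed cells, 1148 ± 159 CPM in precursors and 10.9 ± 8.61 CPM in mature cells. Gpr37l1, a G-protein-coupled receptor, averaged 1017 CPM in newly formed cells and 1169.8 CPM in precursors, a log2 difference of -0.19 ± 0.09 that did not pass (adjusted p = 0.080, edgeR; 0.0077 with total counts), and 54.1 CPM in mature cells. Tnr, the matrix glycoprotein tenascin R, was the list's 1 peak, with 573, 651 and 742 CPM in newly formed libraries, 216, 231 and 282 CPM in precursor ones and 1.02, 4.39 and 13.4 CPM in mature ones. The named genes with the steepest step down were Olfm2, Cspg4, Nxph1, Gm9885, Emid1, Galnt3, Vwc2, Gm26669, Ntn1 and Irx1. Nxph1, a secreted ligand of neurexins, averaged 38.5 CPM in newly formed, 397 in precursor and 4.35 in mature cells, and Emid1, a matrix protein, 23.9 CPM in newly formed, 277 in precursor and 2.61 in mature cells.

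Proliferation genes were mostly lower than in precursors. Of 35 cell cycle genes 20 passed the filter. Of these, 17 were lower and 1 higher than in precursors, with a median of -2.12. Against mature cells 7 were lower and 3 higher (3 and 5 with total counts), the 7 near the 31.7% of all genes that were lower. Top2a, a topoisomerase of dividing cells, had 0 UMIs in newly formed cells, 785 in precursors and 4 in mature cells. The sums of precursors and of mature cells were deeper than those of newly formed cells in every library. Ccnd1, the cyclin of G1 progression, averaged 15.8 ± 13.5 CPM in newly formed cells, 590.3 ± 86.8 CPM in precursors and 10.8 ± 5.82 CPM in mature cells. The 1 gene that was higher, Cdkn1c, encodes an inhibitor of the cycle; it averaged 148 ± 80.2 CPM in newly formed, 56.3 ± 14.2 in precursor and 28.5 ± 13 in mature cells and was above both neighbours in 12 of 13 libraries.

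Growth factor receptors and feedback genes of their pathways were also mostly lower than in precursors. Of 31 tested of 39, 23 were lower and 6 higher than in precursors (median -0.80), and 14 were lower and 9 higher than in mature cells (8 and 13 with total counts). The 6 and the 9 were near the 24.5% and 31.6% of all genes that were higher than in precursors and in mature cells. Etv4, Spry4 and Dusp6, all induced by the ERK pathway and mostly acting back on it, had 7, 4 and 4 UMIs in newly formed cells, against 2242, 1313 and 952 in precursors. These raw counts overstate the ratio: precursor sums held 541537 to 1248776 UMIs per library and newly formed sums 76986 to 299767. Ntrk2, the receptor of brain-derived neurotrophic factor, averaged 121 CPM in newly formed cells, 553 CPM in precursors and 53.6 CPM in mature cells. Irs1, an adaptor of insulin and insulin-like growth factor receptors, peaked with 28.9 ± 12.8 CPM in newly formed, 6.29 ± 2.42 in precursor and 5.02 ± 2.78 in mature cells. Fgfr2 and Erbb3, receptors that are high in mature cells, averaged 8.89 and 7.95 CPM in newly formed cells and 422 and 177 CPM in mature cells.

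Ion channels and transmitter receptors were mostly lower than in precursors. Of 46 tested of 48, 39 were lower and 4 higher than in precursors (median -2.16), 24 were higher and 9 lower than in mature cells (median 0.96), 18 stepped down and none peaked. The AMPA receptor subunit Gria3 had 60.4, 125 and 214 CPM in newly formed libraries, 399, 475 and 555 CPM in precursor ones and 0, 11.4 and 19.6 CPM in mature ones. Grin3a, an NMDA receptor subunit, averaged 40.7 CPM in newly formed, 237 in precursor and 5.31 in mature cells, and the potassium channel Kcnd3 19.1 CPM in newly formed, 110.0 in precursor and 1.83 in mature cells. Gria2, the subunit that blocks calcium entry through AMPA receptors, was among the genes not called against precursors. It had 1339.8 ± 277 CPM in newly formed cells, 1357 ± 139 CPM in precursors (log2 difference -0.04 ± 0.07, adjusted p = 0.66, edgeR) and 64.3 ± 16.3 CPM in mature cells. Kcnip3, a potassium channel partner, was far below precursors, with 14.2 CPM in newly formed, 546 in precursor and 13.2 in mature cells.

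Of 26 tested G-protein-coupled receptors and partners of 31, 18 were lower and 4 higher than in precursors (median -1.33), and 10 were higher and 8 lower than in mature cells, where 31.6% of all genes were higher and 31.7% lower, so that the counts against mature cells were near the share over all genes. Gpr17 was the 1 peak. Adora1, the adenosine A1 receptor, had 0, 4.85 and 33.3 CPM in newly formed libraries, 227, 287 and 367 CPM in precursor ones and 165, 189.6 and 259.9 CPM in mature ones, so it was present before and after this stage but nearly absent within it. Lpar1, a receptor for lysophosphatidic acid, averaged 72.0 ± 51.0 CPM in newly formed, 1.98 ± 1.59 in precursor and 1112 ± 125 in mature cells.

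Wnt, BMP and Notch genes were led by Bmp4 itself. Of 29 tested of 42, 16 were lower and 5 higher than in precursors (median -0.62). Against mature cells 11 were higher and 6 lower (18 and 3 with total counts), the 11 near the 31.6% of all genes that were higher. The peaks were Bmp4, Tcf7l2 and Tcf7l1, the last with 44.9 ± 33.9 CPM in newly formed cells, 12.1 ± 3.13 CPM in precursors and 3.35 ± 2.45 CPM in mature cells. Bmp7, a second ligand, stepped down, with 5.59 CPM in newly formed, 69.5 in precursor and 1.04 in mature cells. Axin2, a target of Wnt signalling, averaged 23.3 ± 18.4 CPM in newly formed cells and 23.4 ± 5.76 CPM in precursors (log2 difference -0.09 ± 0.24, adjusted p = 0.77, edgeR), against 6.21 ± 2.93 CPM in mature cells. Smad7, an inhibitor of TGF-beta family signalling, stepped up with 43.4 CPM in newly formed, 8.38 in precursor and 199 in mature cells, and the Notch ligand Dll1 was lowest, with 5.42 CPM in newly formed, 72.2 in precursor and 10.8 in mature cells.

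Cytoskeleton and process-outgrowth genes included 9 peaks and 5 genes that were lowest in newly formed cells. Of 53 tested of 54, 34 were higher and 14 lower than in precursors (median 0.55), and 23 were higher and 26 lower than in mature cells (31 and 19 with total counts). Tuba1a, an alpha-tubulin of growing processes, had 5472, 7091 and 9603 CPM in newly formed libraries, 1522, 1640.4 and 1869.6 CPM in precursor ones and 1301, 1716 and 2518 CPM in mature ones. Map1b, a microtubule-associated protein of outgrowing neurites, averaged 1055 ± 208 CPM in newly formed, 88.4 ± 9.19 in precursor and 173 ± 28.7 in mature cells. Wasf1 and Cyfip2, members of the WAVE complex that starts branched actin networks, averaged 359.6 and 499 CPM in newly formed cells, 119.7 and 108 CPM in precursors and 66.6 and 26.7 CPM in mature cells. Stmn1 and Stmn4, which destabilise microtubules, were lowest in newly formed cells, at 4.61 and 45.6 CPM, against 27.6 and 284 CPM in precursors and 588 and 3071 CPM in mature cells.

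Adhesion and guidance genes included 6 peaks. Of 51 tested of 60, 29 were lower and 19 higher than in precursors (median -0.58), and 28 were higher and 10 lower than in mature cells (median 0.87). Nfasc, whose glial form joins the myelin loop to the axon, averaged 3024 ± 806 CPM in newly formed, 102 ± 10.9 in precursor and 1285 ± 224 in mature cells. Plxnb3, a semaphorin receptor, averaged 359 CPM in newly formed, 66.0 in precursor and 127 in mature cells, and Epha4, an ephrin receptor, 165 CPM in newly formed, 21.7 in precursor and 57.3 in mature cells. Sema5a, a guidance cue, averaged 414 ± 121 CPM in newly formed cells, 192 ± 20.5 CPM in precursors and 31.1 ± 20.3 CPM in mature cells. Cadm1 and Pcdh7, both adhesion proteins, were the remaining peaks.

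Structural myelin genes differed in how close they were to the mature level. Of 19 tested of 20, 14 were higher and 3 lower than in precursors (median 1.98), 17 were lower and 2 higher than in mature cells (median -3.77), and 9 stepped up. Mbp, which compacts the membrane, was among those closer to the mature level, at 7088 ± 1193 CPM in newly formed cells, 101 ± 16.6 CPM in precursors and 12579 ± 729 CPM in mature cells. Mag, an adhesion protein of the inner wrap, averaged 2267 CPM in newly formed, 15.6 in precursor and 10196 in mature cells, Cnp, which keeps channels in myelin open, 3274 CPM in newly formed, 153 in precursor and 7613 in mature cells, and Cldn11, a tight-junction protein, 2309 CPM in newly formed, 8.44 in precursor and 7866 in mature cells.

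Other structural genes were nearer to the precursor level. Mog averaged 107 ± 27.9 CPM in newly formed cells, 3.81 ± 2.05 CPM in precursors and 3202 ± 353 CPM in mature cells. Mobp, a basic protein of compact myelin, had 0, 38.2 and 94.0 CPM in newly formed libraries, 15.9, 20.5 and 35.4 CPM in precursor ones and 4997, 5922 and 7115 CPM in mature ones. Mal, a raft protein, averaged 15.1 CPM in newly formed, 7.83 in precursor and 7520.3 in mature cells, Opalin, a surface glycoprotein, 13 CPM in newly formed, 3.43 in precursor and 2533 in mature cells, and Ermn, a cytoskeletal protein of the outer loop, 11.1 CPM in newly formed, 9.15 in precursor and 6881 in mature cells. Ermn did not pass against precursors (log2 difference 0.39 ± 0.50, adjusted p = 0.52, edgeR). Cd9, a tetraspanin, was the list's peak, with 2888 CPM in newly formed, 595 in precursor and 1254 in mature cells, while Pmp22 and the gap junction gene Gjb1 were lowest, at 8.06 and 11.8 CPM in newly formed cells against 125 and 54.2 CPM in precursors and 276 and 638 CPM in mature cells.

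All 23 other genes of mature oligodendrocytes were lower than in mature cells (median -5.71), and 14 were higher and 4 lower than in precursors (median 1.15). Ptgds, which makes prostaglandin D2, averaged 841 ± 297 CPM in newly formed, 101 ± 17.8 in precursor and 29017 ± 5063 in mature cells. Aspa, which breaks down N-acetylaspartate, averaged 2.99 CPM in newly formed, 1.88 in precursor and 1210.1 in mature cells and did not pass against precursors (adjusted p = 0.31, edgeR). The genes with the steepest step up included Smco3, Mog, Lpar1, A230009B12Rik, Tmem125, Tmem151a, 4933413G19Rik, Jakmip3 and Tmem63a. Smco3 had 18 UMIs in newly formed cells, 0 in precursors and 2911 in mature cells; against a floor of 3 UMIs over the class it was at least 29.9-fold higher in newly formed than in precursor cells.

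Lipid genes did not form 1 block. Of 30 tested of 31 genes of fatty acids and myelin lipids, 24 were lower and 5 higher than in mature cells (median -0.93, and 16 and 7 with total counts). Against precursors 12 were higher and 8 lower (11 and 13 with total counts), the 8 near the 34.8% of all genes that were lower. Ugt8a and Fa2h, enzymes of galactosylceramide synthesis and its hydroxylated form, averaged 779 and 429.9 CPM in newly formed cells, 201 and 76.8 CPM in precursors and 2117 and 1231 CPM in mature cells. Enpp2, or autotaxin, averaged 1594 CPM in newly formed, 702 in precursor and 5751 in mature cells. Of 24 tested of 25 cholesterol synthesis genes, 15 were lower and 2 higher than in mature cells (median -0.65; 11 and 6 with total counts), and 8 were lower and 1 higher than in precursors (median -0.23); the 8 are near the 34.8% of all genes that were lower than in precursors. Hmgcs1, an early enzyme of the pathway, averaged 131 ± 49.2 CPM in newly formed cells, 126 ± 30.1 CPM in precursors and 443 ± 114 CPM in mature cells.

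The genes that dipped furthest below both neighbours were Creb5, Pstpip2, Samd4, Pou3f1 and Adora1. Creb5, a CREB-family factor, had 2 UMIs in newly formed cells and averaged 52.1 CPM in precursors and 137 CPM in mature cells, which were 78.7 times (95% counting interval 21.7 to 651) and 130 times (36.0 to 1076) the newly formed level. Pou3f1, a POU factor known for its role in Schwann cell myelination, averaged 7.46 ± 6.32 CPM in newly formed cells, 174 ± 37.2 CPM in precursors and 178 ± 25.3 CPM in mature cells. Samd4 averaged 1.62 CPM in newly formed, 44.6 in precursor and 74.0 in mature cells, and Pstpip2, which had 1 UMI in newly formed cells, 25.3 CPM in precursors and 38.1 CPM in mature cells. The activity-linked factors Jun and Jund showed the same shape: Jun had 4.85, 34.5 and 88.5 CPM in newly formed libraries, 253, 279 and 363 CPM in precursor ones and 229.6, 299 and 352 CPM in mature ones, and Jund averaged 22.0 CPM in newly formed, 112 in precursor and 365 in mature cells. Of 23 immediate early genes 6 passed the filter, of which 5 were lower than in precursors, and 3 lower and 2 higher than in mature cells. Over 11 tested of 14 heat-shock genes the medians were 0.60 against precursors and -0.09 against mature cells (0.48 and 0.43 with total counts).

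The level of the class relative to its neighbours was then measured on genes chosen without it. No class outside the lineage was measured in this way, so whether a median between the neighbours is particular to this class was not tested. Genes had to differ between mature cells and precursors by a log2 of at least 2 and have at least 20 CPM in the higher class. This gave 671 genes higher in mature cells and 1131 in precursors. Of these, 657 and 1129 also passed the filter on low counts with newly formed cells included, and were used. Among the 657, newly formed cells had a median of 17.7% of the mature level (interquartile range 5.65 to 36.5%, 14.4 to 19.6% in single libraries), and precursors 10.5%. In newly formed cells 444 of these genes lay between the neighbours, 184 below precursors and 29 above mature cells. Among the 1129, newly formed cells had 27.9% of the precursor level (13.8 to 50.6%, 15.2 to 32.7% in single libraries), and mature cells 6.97%. Here 929 genes lay between, 111 below mature cells and 89 above precursors. With a log2 of at least 3 the mature value was 10.2%, and precursors had 4.69%. Over all 671 genes it was 24.8% with total counts, where precursors had 16.0% and 217 genes lay below precursors. Over all 1131 genes the precursor value was 34.1% without cells above 10000 UMIs.

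**Figure D4:**
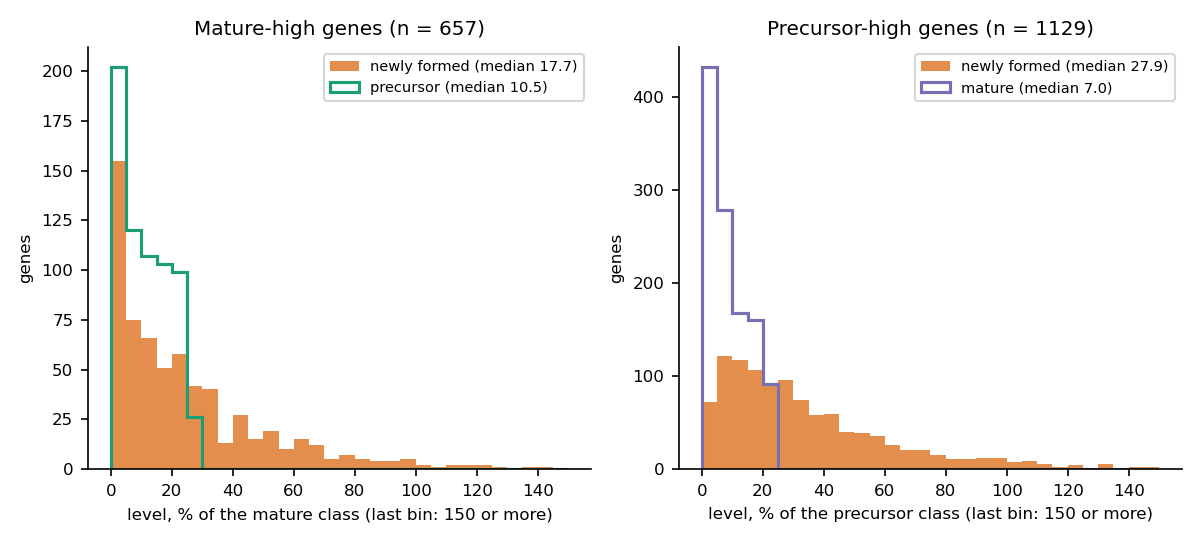
Number of genes by their level as a percentage of the class in which they are higher, for 657 mature-high genes on the left and 1129 precursor-high genes on the right. Filled bars are newly formed cells (medians of 17.7% and 27.9%), and outlines are the opposite class, which lies closer to 0 (medians of 10.5% and 6.97%).

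The cells of the class also differed among themselves. Within each library they were ordered by the log ratio of their UMIs in mature-high genes to those in precursor-high genes and divided into an early, a middle and a late part. The early part held 151 cells, with 7.0% of UMIs in mature-high and 11.1% in precursor-high genes, the middle part 164 cells, with 11.9% and 8.19% in these gene sets, and the late part 151 cells, with 17.8% and 5.62%. The parts are a range, not cell types, and 161 cells lay within 0.25 log2 units of a boundary. Depth moved with the order: the median cell had 3115 UMIs in the early, 3817.5 in the middle and 5744 in the late part, and 7 early, 32 middle and 34 late cells were above 10000 UMIs; its part in the result was not tested. Genes used for the ordering were left out of the comparison, and since the others come from the same cells, calls between late and early cells sort genes and are no independent test.

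Of 1053 genes tested over 12 libraries, 210 (19.9%) were higher and 207 (19.7%) lower in late than in early cells (edgeR, library as block, adjusted p under 0.05). The genes lowest in adjusted p that were higher late were Rnf122, Gjc3, Peli1, Ttyh1, Cadm1, Gipc1, Cadm2, Fscn1, Specc1 and Rasgef1b, each higher in all 12 libraries. In unscaled CPM, Rnf122, a ubiquitin ligase, averaged 62.7 CPM in early, 195 in middle and 1184 in late cells, a late minus early log2 difference of 4.22 ± 0.19. Gjc3, a connexin of myelinating glia, averaged 707 CPM in early, 1826 in middle and 3409 in late cells. Fscn1, which bundles actin in filopodia, averaged 87.5 CPM in early, 285 in middle and 709 in late cells. Ttyh1, a transmembrane protein, averaged 244 CPM in early, 232 in middle and 1237 in late cells, so its step came only late.

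The genes lower late with the smallest adjusted p were Sox8, Fsd1l, Pcsk1n, Olig1, Gpm6b, Cdkn1c, Ncald, Ccdc88a, Omg and Zbtb20, again in all 12 libraries. Sox8, a SOX factor close to Sox10, averaged 1458 CPM in early, 753 in middle and 372 in late cells, a log2 difference of -1.88 ± 0.13, and Olig1 averaged 2304 CPM in early, 1451 in middle and 825 in late cells. Cdkn1c averaged 324 CPM in early, 250.2 in middle and 24.0 in late cells, so this cycle inhibitor was seen mostly in early and middle cells. Sox10 did not pass, with 516 CPM in early, 490 in middle and 584 in late cells (log2 difference 0.19 ± 0.14, adjusted p = 0.28, edgeR).

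The genes of the class did not peak at the same point of the order. Of the 306 peak genes 100 were tested and 45 had been used for the ordering. Of the 100, 72 were higher and 12 lower in late cells, where 19.9% of all genes tested were higher and 19.7% lower. The median log2 difference was 1.03, against -0.04 over all genes. The peak genes were chosen on sums in which late cells held 1018814 UMIs and early cells 620899. That choice could favour genes high in late cells, so the counts are no independent test. Peak genes that failed the filter on low counts are not covered. Pik3r3 averaged 121 CPM in early, 1061 in middle and 3708 in late cells, Frmd4a 137 CPM in early, 1062 in middle and 2191 in late cells, and Tcf7l2 119 CPM in early, 261 in middle and 613 in late cells. Nkx2-2 was on the early side, with 591 CPM in early, 408 in middle and 138 in late cells. Epcam was highest in the middle, with 107 CPM in early, 383 in middle and 268 in late cells.

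Fyn and Bcas1 marked the whole order: Fyn averaged 3427 CPM in early, 4341 in middle and 3230 in late cells (late minus early log2 difference -0.02 ± 0.11, adjusted p = 0.89, edgeR), and Bcas1 3459 CPM in early, 4023 in middle and 3140 in late cells (-0.11 ± 0.10, adjusted p = 0.43, edgeR). Bmp4 averaged 274 CPM in early, 936 in middle and 518 in late cells, with a log2 difference of 0.95 ± 0.37 that did not pass (adjusted p = 0.067, edgeR) and was positive in 8 of 12 libraries and negative in 2. Leaving out male replicate 3 or female replicate 5 made it pass, at 1.19 and 1.21. Enpp6, Gpr17 and Neu4 were used in the ordering and are given as values only: Enpp6 had 416 CPM in early, 1320 in middle and 2118 in late cells, Gpr17 5626 CPM in early, 4879 in middle and 1748 in late cells and Neu4 1026 CPM in early, 808 in middle and 410 in late cells.

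**Figure D5:**
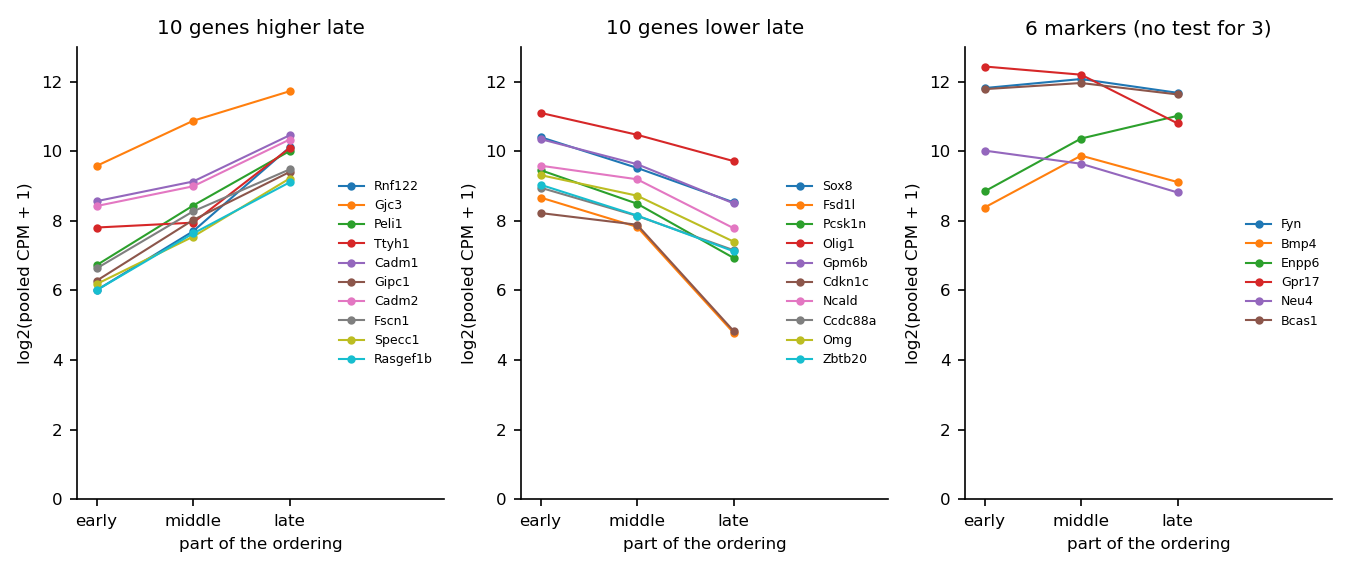
Pooled levels, as log2(CPM + 1), in the early, middle and late parts of the newly formed cells, for the 10 genes named as higher late, the 10 named as lower late and the 6 markers. Rnf122 and Gjc3 climb steadily from left to right, Fsd1l and Cdkn1c drop mainly in the last step, and among the markers Bmp4 is highest in the middle part, while Enpp6 climbs and Gpr17 and Neu4 decline.

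Newly formed cells had more UMIs per cell than their neighbours under the filter of 500 genes. The median cell had 2919.5 to 8346 UMIs in the 13 libraries, 4346 ± 1416 on average (SD), against 2740.1 ± 396 in precursors and 3301 ± 446 in mature cells. It was higher than in precursors in 13 of 13 libraries, by 1606 ± 1158 UMIs (exact sign-flip permutation test, two-sided, adjusted p = 0.000488; 0.000244 is the smallest p that 13 pairs allow), and higher than in mature cells in 11 of 13, by 1044.5 ± 1138 (adjusted p = 0.00146, exact sign-flip permutation test). The comparison depended on which cells were let in. With all 639 cells and no filter, the differences were 448 UMIs from precursors (adjusted p = 0.327) and -217 UMIs from mature cells (adjusted p = 0.505), both by the exact permutation test.

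Very deep cells were more frequent in this class. Above 10000 UMIs lay 73 newly formed cells (15.7%), 18 precursors (0.428%) and 148 mature cells (3.73%), and the 73 came from all 13 libraries. They had a median of 12946 UMIs against 3111 in the other 393, with 14.3% against 10.6% of UMIs in mature-high genes and 6.45% against 8.62% in precursor-high genes. Scrublet called 1 of the 73 and 2 of the 393 doublets. Marker sums of other types were 453 against 330 CPM for astrocytes, 93.2 against 365 CPM for microglia and 274 against 504 CPM for neurons, and the sum of the 6 markers was 12991 against 14397 CPM. Without cells above 10000 UMIs in any class the difference was 611 UMIs to precursors (adjusted p = 0.00488) and 136 UMIs to mature cells (adjusted p = 0.474, exact permutation tests), and 275 genes peaked, of which 262 were among the 306.

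The share of newly formed cells in the lineage did not differ detectably between the sexes. It was 3.43, 5.85 and 7.55% as the lowest, median and highest of 6 male libraries, and 3.06, 4.53 and 7.70% of 7 female ones. The means were 5.53 ± 1.45% in males and 5.22 ± 1.75% in females (SD), a difference of 0.312 percentage points (exact permutation test over 1716 assignments, two-sided, p = 0.724). The groups overlapped over nearly their whole range.

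Between males and females 4 of 4485 genes tested within newly formed cells passed (0.0892%), and all 4 lie on the sex chromosomes (edgeR quasi-likelihood test, adjusted p under 0.05). Eif2s3y, a Y-linked translation factor, averaged 251 ± 41.8 CPM in 6 male libraries and 0 in 7 female ones, at least 103-fold higher in males over the group's floor of 3 UMIs. Ddx3y, a Y-linked RNA helicase, averaged 176 ± 53.3 CPM in male and 0 in female libraries, at least 69.8-fold higher. Xist, the RNA of the inactive X chromosome, had 0 UMIs in male libraries and averaged 2043 ± 492 CPM in female ones, and Tsix, which lies antisense to Xist and cannot be told apart from it without strand, had 0 UMIs in male libraries and averaged 223 ± 102 CPM in female ones. At an unadjusted p under 0.05 there were 170 genes, and DESeq2 found 2 genes higher in males and 2 in females at its adjusted threshold.

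Of the 306 peak genes 258 were tested and none passed, with log2 differences of -1.05 to 0.78, and 2.33% had an unadjusted p under 0.05 against 3.79% of all genes (edgeR). The markers' male minus female differences lay between -0.24 and 0.11. The gene nearest to passing that is not sex-linked was Lactb, a mitochondrial serine protease-like protein, with 66.3, 74.5 and 109 CPM in male libraries and 20.5, 33.7 and 60.1 CPM in female ones (log2 difference 1.24 ± 0.31, adjusted p = 0.168, edgeR); it passed without female replicate 3. The sex difference in newly formed cells did not differ detectably from that in precursors or in mature cells for any of 10166 genes (edgeR interaction term, 0 passed against either class, while 493 and 601 genes had an unadjusted p under 0.05; DESeq2 gave 428 and 526). Leaving out male replicate 5 gave 1 and 6 genes.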

How the data were processed

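The deposited values were UMI counts of each gene in each Drop-seq cell, whole and not normalized by the authors, with library and class in the cell names. Per the submitters' processing notes, the tools were STAR 2.5.0a and bcl2fastq 2.17.1.14, and the build was mm10. The sources used here do not give how UMIs were collapsed, whether strand was used or how classes were assigned. The table held 16961 genes, none of them mitochondrially encoded.

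Cells needed at least 500 detected genes. Doublets were called per library with Scrublet (Scanpy 1.11.5; 281 of 24808 cells, 1.13%) and kept, except in an alternative. Counts were summed per library and class, and genes passing filterByExpr were fitted with edgeR 4.0.16 (R 4.3.3; TMM scaling, robust quasi-likelihood F test, two-sided, Benjamini-Hochberg adjustment over all genes tested, threshold 0.05), with the library as a block between classes and between late and early cells and without it between sexes. Standard errors were taken as the absolute log2 difference over the root of F. The CPM of early, middle and late cells and of the 8 classes are not TMM-scaled. Ratios with 1 to 3 UMIs in a class use unscaled totals with exact 95% intervals conditional on the total, and a count of 0 was set to 3 UMIs over the group; both cover counting error only. DESeq2 1.42.0 and limma 3.58.1 (voom) were alternatives.

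Named genes were the 6 markers, up to 25 peak genes with at least 20 CPM by the smaller of the 2 log2 differences, up to 5 lowest, 10 falling and 10 rising genes by the same measure, list members where a list is described, up to 10 genes per direction by adjusted p between late and early cells, and up to 5 per direction between sexes. Values of a few genes that this choice names are not reported here. Kcne4 and other genes in sentences on the 8 classes are from these. The members, lists and tests were chosen with earlier results of these data known. Symbols absent from the table were sought by synonym. Gene positions came from GENCODE M21 and promoters from RefSeq, both on GRCm38, the assembly that mm10 names.

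Counts were simulated with 100 genes changed per size. The comparison with precursors (10505 genes) recovered 93% of genes changed by a log2 of 1 and 100% of those changed by 2, with 8 false calls. The comparison of the sexes (4432 genes) recovered 78% and 100%, with 7 false calls. Changed genes had at least 20 CPM in precursors for the former and at least 100 CPM in newly formed cells for the latter. The simulated spread between libraries was set, not estimated from these data. Recovery of weaker genes was not measured. Python 3.11.15 with numpy 2.4.6, scipy 1.17.1 and pandas 2.3.3 was used for the rest.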

Additional observations from a re-analysis of the deposited data

Results flagged for a closer look

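In 16 groups of libraries examined for a single value far from the others, 2 held one, and chance alone flags about 1 in 20 such groups. The median newly formed cell of male replicate 1 had 8346 UMIs, while the next highest of the 6 male libraries had 4189; without that library the difference from precursors was 1352 UMIs and from mature cells 788 UMIs. Enpp6 reached 2151 CPM in the newly formed cells of female replicate 1, the library with the fewest of them (12 cells), while the next highest of the 7 female libraries had 1383 CPM.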

How the results depend on the processing

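Counts are of genes called against precursors and against mature cells, then of peak, lowest, falling and rising genes. They were 6030 and 6437, then 306, 425, 574 and 163. Thinning the neighbours' sums to the newly formed total tested 5289 genes and gave 3160 and 3518 calls, 177 lowest and 242 falling genes, and 211 peak genes, 199 of them among the 306. Leaving out 1 library at a time gave 5757 to 5957 and 6244 to 6395 calls and 302 to 324, 398 to 446, 556 to 583 and 160 to 178 genes. DESeq2, voom, total counts, no filter on genes or cells, doublets removed, 1000 genes per cell, 9-week libraries, no library term and cells above 10000 UMIs left out kept each count within 1.5 times; peak genes were 275 to 425. The position was 10.2% with a log2 of at least 3 and 24.8% with total counts for mature-high genes. It was 34.1% for precursor-high genes without cells above 10000 UMIs. The last 2 alternatives used all 671 mature-high or 1131 precursor-high genes and were chosen after seeing the data. Late against early gave 417 calls, 908 without the filter on low counts (12543 genes tested) and 379 to 418 leaving out 1 library. The sexes gave 4 calls, 10 without the filter and 4 to 6 leaving out 1 library; class by sex gave 0, and 0 to 1 (precursors) and 0 to 6 (mature) leaving out 1 library, with 1 gene against mature cells without male replicate 4 or female replicate 6. The male minus female share was -0.0925 to 0.732 percentage points leaving out 1 library, and below 0 without male replicate 3 or female replicate 1 (-0.0481). UMI differences were 1352 to 1712 and 788 to 1162 leaving out 1 library, 448 and -217 (direction turned) with no filter on cells, and 136 from mature cells without cells above 10000 UMIs. The cause of these moves was not tested. Alternatives were tallied for the markers and for genes named by pattern, between late and early cells or between sexes, not for other list members. Among these, Fyn between late and early cells turned to 0.20 without the filter and Bcas1 to 0.12. Leaving out 1 library, Fyn lay between -0.12 and 0.058 (above 0 without male replicate 1 or 3 or female replicate 5). The tally held 3020 values, from 136 results, that kept their side and direction. Another 7, from 4 results, passed where the reported value had not. Some list members outside the tally also turned direction against precursors. Sox10 was at -0.035 and Ermn at -0.26 with DESeq2, and Axin2 at 0.042 without cells above 10000 UMIs.

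With the replicate number 1 to 6 as a block the sexes gave 6 calls, 2 of them not sex-linked. Same-numbered male and female libraries correlated at -0.0346 to 0.174 in their deviations, and only female replicate 1 correlated best with its own number. The labels do not say whether the numbers pair the libraries. Correlations of such shallow sums cannot decide it.

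Depth limits what can be seen: newly formed cells made up the smallest summed counts of the 3 classes, at 12 to 56 cells per library. The comparison of the sexes recovered 78% of simulated 2-fold changes, drawn from better expressed genes at a set spread. Recovery was not measured for weaker genes, which the comparison also covered.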
